A study of Mus musculus with 16 samples.

Results

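The Bcl2 axis, the set of proteins that decides whether a cell's mitochondria release the signal for apoptosis, was followed here through 10 genes: the pro-survival genes Bcl2, Bcl2l1 and Mcl1, the pore-forming effector Bak1, the BH3-only genes Bcl2l11, Bid, Bad and Bbc3, and the caspase-activating genes Apaf1 and Casp8. Every probe set whose only gene symbol on the platform is one of these was taken, which gave 31 of the 45101 probe sets, 10 of 18193 genes with such a probe set. The rule itself uses no measured value, but the genes were chosen with earlier results of these data known. Bcl2 had 5 probe sets, Bcl2l1 4, Mcl1 6, Bcl2l11 5, Bid 3, Bak1, Bad and Apaf1 2 each, and Bbc3 and Casp8 1 each. The tissue came from incisional wounds on the back of wild-type C57BL/6 mice, labelled female, in a mouse model of hypertrophic scarring. Wounds were either unstressed (no load) or stressed (mechanically loaded), and were taken at day 6, after 48 hours of loading, or at day 14, when loading had gone on for 10 days. There were 4 groups of 4 Affymetrix arrays, with 4 mice stated for each group. No age of the mice is stated. The labels cite for the model a publication on mechanical load and reduced apoptosis in scars, and the comparisons ask how the transcripts of the apoptotic machinery differed with load and with time.

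Apoptosis through the mitochondrion is set by a balance among relatives of Bcl2. Pro-survival members bind and restrain the pore-formers Bax and Bak1, BH3-only members release that restraint when a cell is stressed or loses growth factors, and cytochrome c from the opened mitochondrion assembles with Apaf1 into the apoptosome that activates caspases. Casp8 starts the parallel route from death receptors, and it reaches the mitochondrion by cleaving Bid. In healing skin, apoptosis removes inflammatory cells and myofibroblasts as granulation tissue turns into scar. Much of this control is exerted on the proteins, by phosphorylation of Bad, cleavage of Bid and degradation of Mcl1, which transcript levels do not show.

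Signals are on the log2 scale and were centred by the authors on each probe set, which leaves 0 without an absolute meaning, and it cannot be judged whether skin markers or members were present. Differences between arrays are all that these values hold. The log base is not stated and was read as 2. In whole tissue, fewer cells of a type and less RNA per cell cannot be told apart. The number of arrays limits the precision. Although all arrays are labelled female, Xist, which silences an X chromosome in female cells, was high (5.98 to 6.30) and the mean of 3 Y-linked genes low (-3.97 to -3.53) only in replicates 3 and 4 of both day 14 groups. The other 12 arrays ranged from -0.53 to 0.81 for Xist and from -0.99 to 0.74 for the Y-linked genes, which goes against their label. Results at day 14 are therefore also given within replicates 1 and 2 (low Xist) and within replicates 3 and 4 (high Xist).

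The sequences upstream of the 5 genes that passed the test for loading at day 14 are shown because 3 of these genes (Bcl2l1, Bcl2 and Mcl1) fell in 1 probe set each and the other 2 (Bcl2l11 and Apaf1) rose in at least 1. Each line holds the 250 bases before the most upstream annotated start in RefSeq (build GRCm38.p6), 5′ to 3′ on the gene's strand, with capitals at matches to the motifs searched. These were the TATA box (TATAAA), Sp1 (GGGCGG), FOXO (GTAAACA), AP-1 (TGANTCA), E2F (TTTNNCGC) and TEAD (GGAATG), and the p53 decamer by its name, all on both strands.
Bcl2l1, chr2:152831729-152831978, minus strand: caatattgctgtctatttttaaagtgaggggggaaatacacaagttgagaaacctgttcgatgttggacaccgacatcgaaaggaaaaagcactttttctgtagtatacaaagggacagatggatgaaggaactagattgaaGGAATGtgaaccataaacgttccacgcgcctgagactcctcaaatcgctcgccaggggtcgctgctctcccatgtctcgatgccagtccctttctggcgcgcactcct
Bcl2, chr1:106714291-106714540, minus strand: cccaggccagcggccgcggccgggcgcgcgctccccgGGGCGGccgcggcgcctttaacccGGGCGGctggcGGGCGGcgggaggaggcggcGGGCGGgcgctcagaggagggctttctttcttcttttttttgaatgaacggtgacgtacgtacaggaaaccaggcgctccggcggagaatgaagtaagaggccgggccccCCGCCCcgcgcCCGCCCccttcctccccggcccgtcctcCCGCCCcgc
Mcl1, chr3:95658471-95658720, plus strand: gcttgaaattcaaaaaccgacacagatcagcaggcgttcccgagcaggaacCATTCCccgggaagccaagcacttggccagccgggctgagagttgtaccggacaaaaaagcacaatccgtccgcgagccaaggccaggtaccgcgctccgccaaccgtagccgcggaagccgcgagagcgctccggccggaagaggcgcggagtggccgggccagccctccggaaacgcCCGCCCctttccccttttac
Bcl2l11, chr2:128125788-128126037, plus strand: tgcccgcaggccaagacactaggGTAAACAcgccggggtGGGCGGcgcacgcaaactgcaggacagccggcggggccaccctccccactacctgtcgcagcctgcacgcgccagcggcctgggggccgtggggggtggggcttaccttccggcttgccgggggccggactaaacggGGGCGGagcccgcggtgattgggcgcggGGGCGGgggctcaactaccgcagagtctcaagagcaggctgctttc
Apaf1, chr10:91082744-91082993, minus strand: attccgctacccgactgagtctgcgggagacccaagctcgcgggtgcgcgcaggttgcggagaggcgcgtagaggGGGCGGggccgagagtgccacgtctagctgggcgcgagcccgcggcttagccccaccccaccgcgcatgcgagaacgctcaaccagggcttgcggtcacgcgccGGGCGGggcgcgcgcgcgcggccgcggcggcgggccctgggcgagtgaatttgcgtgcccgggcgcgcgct

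All 10 genes had an entry among the RefSeq promoters, with 16 windows in all. The Sp1 motif lay in 10 of the 16 windows, against 32.7% of all 32851 windows of the same length. The windows printed for Bcl2, Mcl1, Bcl2l11 and Apaf1 held 7, 1, 3 and 2 matches to it, and that of Bcl2l1 held none. Bcl2l1 also stood apart in base composition, with 47.6% G and C and 12 CpG dinucleotides, against 74.8% and 36 for Bcl2, 64.4% and 26 for Mcl1, 72% and 24 for Bcl2l11, and 75.6% and 42 for Apaf1. The median of all windows was 52.4% and 6. A FOXO match lay in the printed window of Bcl2l11 and in 1 of the 3 windows of Bbc3, and in 3.17% of all windows. TEAD matches (12.6% of all windows) lay in the windows of Bcl2l1 and Mcl1, and an E2F match (4.28%) in the second of the 3 windows of Bcl2l1. TATA, AP-1 and p53 matches were in none of the 16, against 12.4%, 6.75% and 7.13% of all windows. Matches of letters are a description and not evidence of a bound site.

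After 48 hours of loading (day 6), no member probe set differed between stressed and unstressed wounds at an adjusted p of 0.05 in limma. The background was as sparse, with 9 of the 34945 probe sets tested called (0.0258%), while 1 of the 31 members and 1982 of all probe sets had an unadjusted p under 0.05. With quantile normalization between arrays 433 probe sets passed, 302 higher and 131 lower, against 5 higher and 4 lower as deposited. The 31 differences ran from -0.40 to 0.42 on the log2 scale, with 18 above 0 and a median of 0.01. Apaf1, the scaffold of the apoptosome, had the smallest p (probe set 1452870_at). Its signal was -0.22, 0.08, -0.04 and 0.00 in unstressed replicates 1 to 4 and 0.28, 0.28, 0.49 and 0.46 in stressed ones. These groups did not overlap, and it was the only member of which this held, against 6.16% of all probe sets. The difference was 0.42 (SE 0.12, 95% interval 0.17 to 0.68, adjusted p = 0.44). It passed with quantile normalization (0.60, adjusted p = 0.036) and with array weights (0.47, adjusted p = 0.024), where 591 of all probe sets passed. In the other 6 of 8 settings and in all 16 fits without 1 array it did not pass, with adjusted p up to 0.92. The other Apaf1 probe set (1450223_at) differed by 0.40 (95% interval -0.19 to 0.98), with overlapping groups. For Bcl2l1 1420888_at the difference was -0.04 (95% interval -0.37 to 0.29), for Mcl1 1456381_x_at 0.02 (-0.40 to 0.43) and for Bcl2l11 1435449_at -0.40 (-1.20 to 0.40). These intervals leave room for changes of moderate size at day 6. No cell type marker passed at day 6, but the array means of fibroblast markers (-0.23 to 0.03 in unstressed and 0.32 to 0.49 in stressed wounds) and of keratinocyte markers (0.25 to 0.93 and -0.25 to 0.10) did not overlap between the groups. Their part in the day 6 difference of Apaf1 was not tested.

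After 10 days of loading (day 14), 3 pro-survival probe sets fell, 1 each of Bcl2l1, Bcl2 and Mcl1, and 4 rose, 3 of the BH3-only gene Bcl2l11 and 1 of Apaf1. These 7 were 22.6% of the 31 member probe sets, against 7.35% of all probe sets tested (3.31% higher and 4.04% lower). In all, 4 of 15 pro-survival differences lay above 0 (median -0.32), as did 11 of 11 BH3-only differences (median 0.48) and 3 of 3 for Apaf1 and Casp8 (median 0.93), where the median of all probe sets was 0.01. Within the high-Xist arrays alone, the BH3-only differences of the 3 Bid probe sets and of Bcl2l11 1426334_a_at lay below 0. Probe sets of 1 gene are not independent of each other. The plot of loading differences gives all 31.

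**Figure D1:**
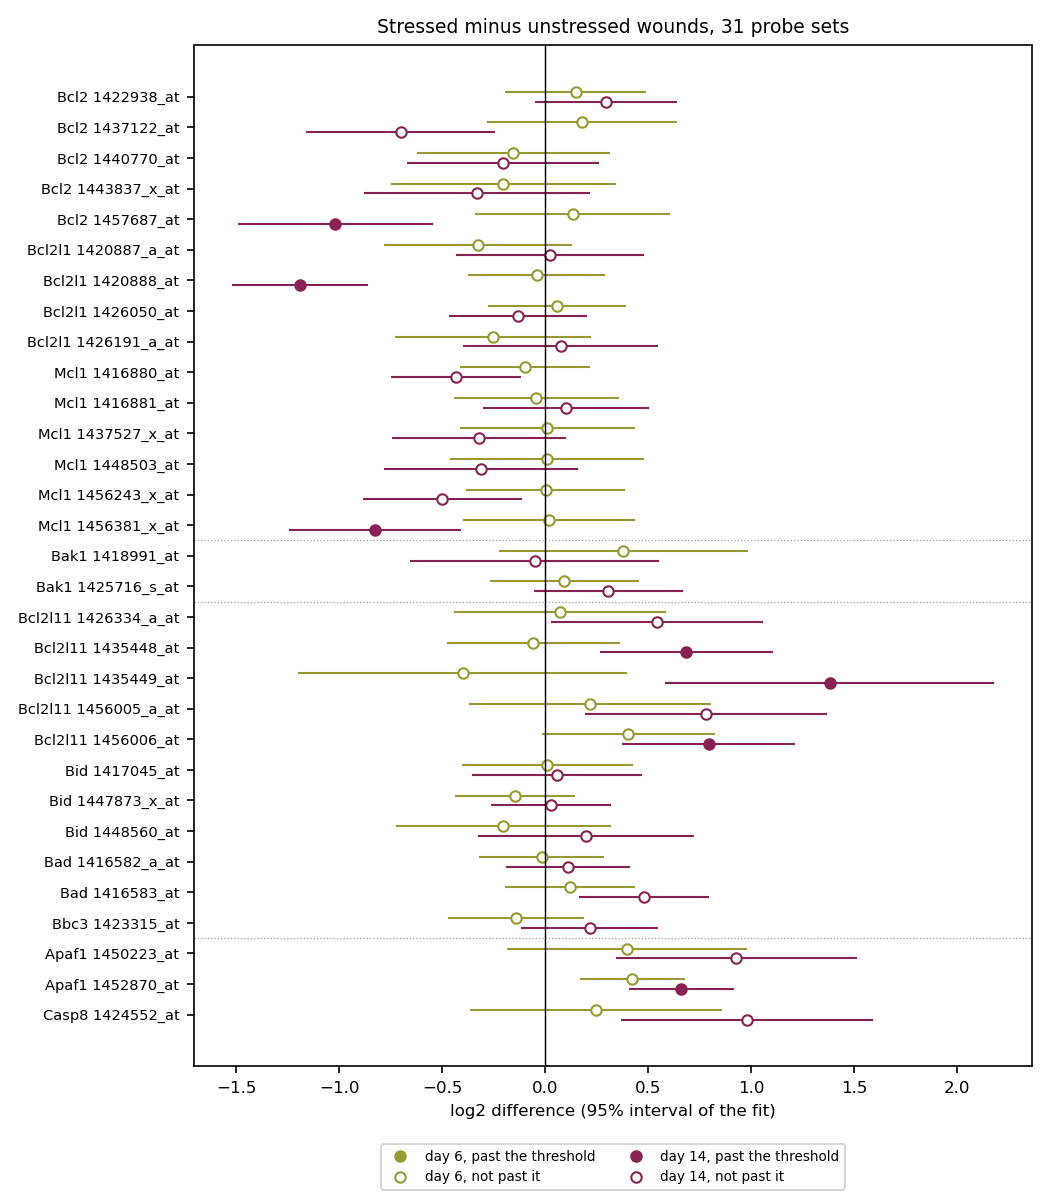
Stressed minus unstressed difference (log2, x axis) of each of the 31 member probe sets at day 6 and day 14, with the 95% interval of the limma fit (n = 4 arrays per group) and dotted lines between pro-survival, effector, BH3-only and caspase-activating genes. Filled points passed an adjusted p of 0.05, which 7 did at day 14 and 0 at day 6.

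Bcl2l1 encodes Bcl-xL, a guardian of the outer mitochondrial membrane. Its probe set 1420888_at read 0.56, 0.21, 0.53 and 0.20 in unstressed replicates 1 to 4 at day 14 and -0.81, -0.86, -1.20 and -0.39 in stressed ones. Every stressed array lay below every unstressed one, and the 8 arrays of day 6 lay between, at -0.29 to 0.10. The group means were 0.37 ± 0.20 and -0.81 ± 0.33 (SD, n = 4), and the signal fell by 1.19 with loading (SE 0.16, adjusted p = 0.00075), 2.28-fold on the linear scale. The difference was -1.22 in the low-Xist and -1.16 in the high-Xist arrays. The other 3 Bcl2l1 probe sets did not pass, with differences of 0.02 for 1420887_a_at (95% interval -0.43 to 0.48), -0.13 for 1426050_at (-0.47 to 0.20) and 0.07 for 1426191_a_at (-0.40 to 0.55). Over the 16 arrays, the 4 probe sets correlated with each other at r = -0.28 to 0.42, so the fall was measured in 1420888_at and cannot be given for the gene as a whole. Which transcripts each probe set reads is not stated.

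Bcl2, the founding pro-survival member, had 1 of 5 probe sets past the threshold at day 14. Probe set 1457687_at read -0.11, -0.55, -0.43 and -0.07 in unstressed and -1.20, -1.64, -1.80 and -0.59 in stressed replicates 1 to 4. The groups did not overlap, although stressed replicate 4 lay close to unstressed replicate 2. The signal fell by 1.02 (SE 0.22, adjusted p = 0.014), by similar amounts in low-Xist (-1.09) and high-Xist arrays (-0.95). Probe set 1437122_at read 0.27, -0.02, -0.74 and -0.71 in unstressed and -1.06, -1.44, -0.80 and -0.71 in stressed replicates. Its difference of -0.70 (SE 0.22, adjusted p = 0.061) came from the low-Xist arrays (-1.37), with -0.03 in the high-Xist ones. Probe sets 1440770_at and 1443837_x_at had differences of opposite sign in the 2 classes, -0.85 and -0.93 with low Xist and 0.44 and 0.28 with high Xist, while 1422938_at differed the other way from 1457687_at, by 0.30 (95% interval -0.05 to 0.64).

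Mcl1, a short-lived pro-survival protein on which neutrophils depend, also had 1 probe set that fell, 1456381_x_at. It read 0.33, -0.35, -0.76 and -0.33 in unstressed and -1.13, -1.16, -1.21 and -0.92 in stressed replicates 1 to 4 at day 14. The stressed arrays lay close together, below all 4 unstressed arrays, which were more spread. The mean fell by 0.83 with loading, from -0.28 ± 0.45 to -1.10 ± 0.13 (SD, n = 4; adjusted p = 0.021 in limma), and the differences within classes were -1.13 (low Xist) and -0.52 (high Xist). The suffix _x_at marks a probe set whose probes may also match other transcripts, so this signal is uncertain. The other 5 Mcl1 probe sets differed by -0.50 to 0.10, with 4 of them below 0 and none past the threshold.

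Bcl2l11 encodes Bim, a BH3-only protein that kills cells deprived of growth factors and lymphocytes and myeloid cells at the end of a response. Its 5 probe sets differed by 0.54 to 1.38 at day 14, all above 0, and 3 of them rose. Probe set 1435449_at read -1.06, -0.76, -0.90 and -1.49 in unstressed and 0.91, 1.04, -0.11 and -0.53 in stressed replicates 1 to 4. Stressed replicates 1 and 2 were highest and all 4 stressed arrays exceeded the unstressed ones. The rise was 1.38 (SE 0.38, adjusted p = 0.038), 2.60-fold on the linear scale, and was 1.89 in the low-Xist and 0.88 in the high-Xist arrays.

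Probe set 1456006_at of Bcl2l11 read -0.25, -0.39, -0.41 and -0.37 in unstressed wounds at day 14 and 0.65, 1.07, -0.02 and 0.05 in stressed ones. It rose by 0.79 (SE 0.20, adjusted p = 0.026), with 1.18 in low-Xist and 0.41 in high-Xist arrays. Probe set 1435448_at read -0.83, -1.03, -0.52 and -0.19 in unstressed and -0.04, 0.28, 0.09 and -0.17 in stressed wounds. Unstressed replicate 4 and stressed replicate 4 nearly touched. Its rise of 0.69 (SE 0.20, adjusted p = 0.048) was not kept with the replicate number as a block (adjusted p = 0.098 in limma). The remaining probe sets differed by 0.54 (1426334_a_at, adjusted p = 0.19) and 0.78 (1456005_a_at, adjusted p = 0.097). The first had 1.22 in low-Xist and -0.13 in high-Xist arrays and the second 0.78 in each class.

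Apaf1 rose in 1 of 2 probe sets. Probe set 1452870_at read -0.51, -0.70, -0.85 and -0.63 in unstressed and -0.09, 0.26, -0.22 and 0.00 in stressed replicates 1 to 4 at day 14. The groups were well apart and the rise of 0.66 (SE 0.12, adjusted p = 0.0057) was alike in low-Xist (0.69) and high-Xist arrays (0.63). The second probe set, 1450223_at, read -0.19, -0.13, -0.25 and -0.33 in unstressed and 1.19, 1.11, 0.27 and 0.24 in stressed wounds. These groups did not overlap either, with a difference of 0.93 (SE 0.27, adjusted p = 0.052), 1.31 in low-Xist and 0.54 in high-Xist arrays. Of the 31 member probe sets, 8 had no overlap between the groups at day 14 (the 7 called and this one), against 10.1% of all probe sets.

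Casp8, the initiator caspase of death receptors, read -1.55, -1.34, -1.94 and -1.0 in unstressed and -0.09, 0.18, -1.0 and -1.01 in stressed replicates 1 to 4 at day 14. Stressed replicates 1 and 2 lay far above all unstressed arrays and replicates 3 and 4 at the level of unstressed replicate 4. The difference was 0.98 (SE 0.29, adjusted p = 0.0505), 1.49 in low-Xist and 0.47 in high-Xist arrays. It passed with 1 probe set per gene (adjusted p = 0.049), with array weights (0.0083), with only the more variable probe sets (0.041), with the Xist class as a block (0.024) and with only low-Xist arrays at day 14 (0.0043). It did not pass in 6 of these 11 settings, among them quantile normalization, the replicate block, only the 8 arrays of day 14 and only the high-Xist arrays. Nor did it pass in 12 of 16 fits without 1 array, and the adjusted p reached 0.62. Bad, which binds Bcl-xL and Bcl2 unless it is phosphorylated, differed by 0.48 in probe set 1416583_at (SE 0.15, adjusted p = 0.061). Bbc3, the p53-induced BH3-only gene also called Puma, differed by 0.22 (95% interval -0.12 to 0.55). The 3 Bid probe sets differed by 0.03 to 0.20 and the 2 of Bak1 by -0.05 and 0.31, none past the threshold. For all 3 Bid probe sets the classes pointed opposite ways. The differences in low-Xist and high-Xist arrays were 0.49 and -0.38 for 1417045_at, 0.67 and -0.27 for 1448560_at, and 0.11 and -0.05 for 1447873_x_at.

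**Figure D2:**
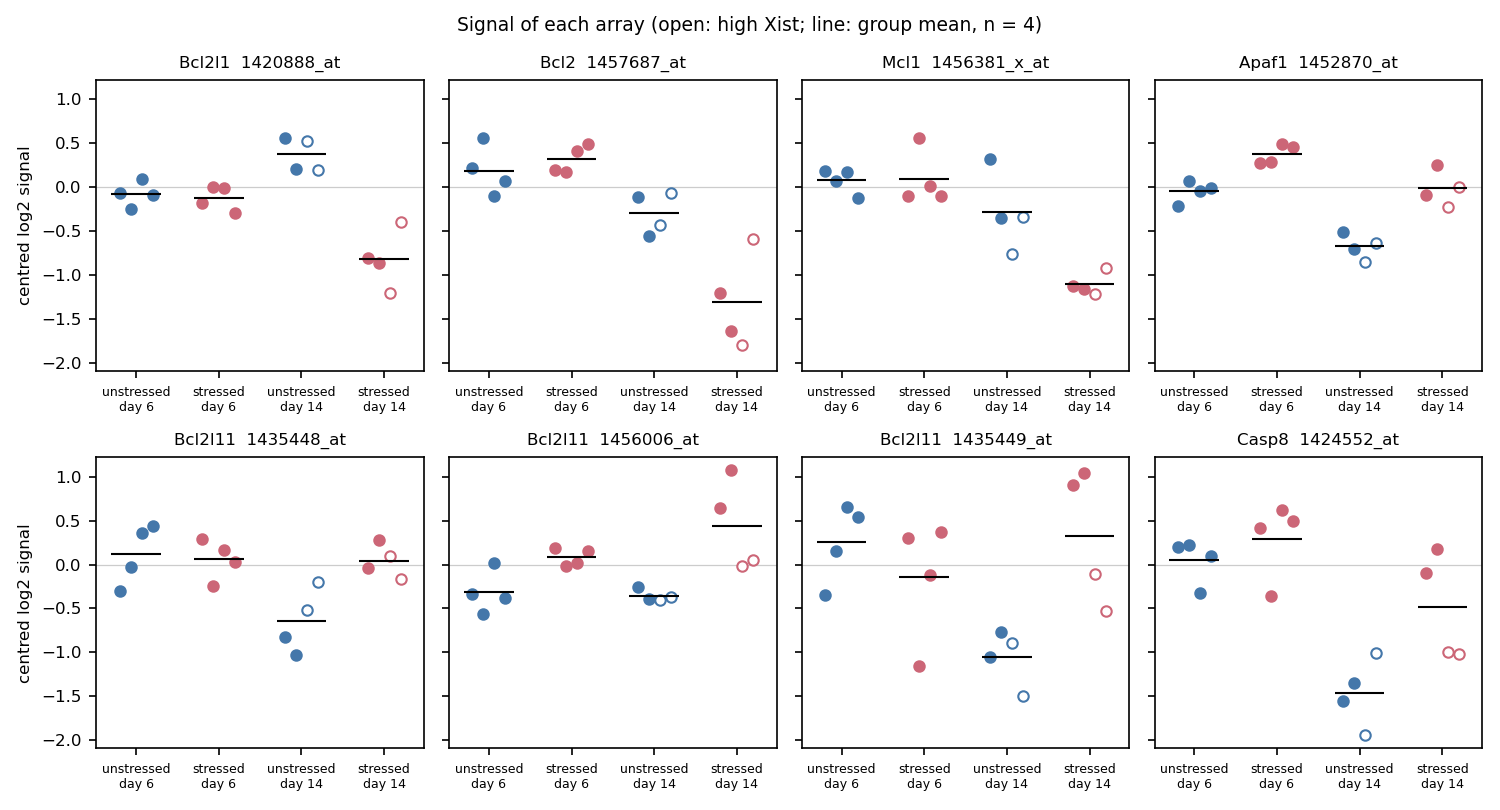
Centred log2 signal (y axis) of every array in the 4 groups for the 7 member probe sets that passed for loading at day 14 and for Casp8. Filled points are low-Xist arrays, open points the high-Xist arrays (replicates 3 and 4 of day 14), points run from replicate 1 to 4 within a group, and lines are group means (n = 4); in the stressed day 14 group, replicates 1 and 2 of Bcl2l11 1435449_at lay at 0.91 and 1.04 and replicates 3 and 4 at -0.11 and -0.53.

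Of the 7 calls at day 14, only that of Bcl2l1 1420888_at held under all of its 26 alternative settings, with differences from -1.33 to -0.86. The other 6 kept their direction in every setting but did not pass with quantile normalization, with only the 8 arrays of day 14 or with only the high-Xist arrays of day 14. The adjusted p-values were 0.094 to 0.43, 0.08 to 0.14 and 0.07 to 0.66. Leaving out stressed replicate 2 of day 14 moved Bcl2 1457687_at to -0.91 (adjusted p = 0.055) and Mcl1 1456381_x_at to -0.81 (adjusted p = 0.063), and leaving out stressed replicate 1 moved the latter to -0.82 (adjusted p = 0.054). Bcl2l11 lost its call without 1 array in 12 of 16 cases for 1435448_at (adjusted p = 0.051 to 0.15), 7 of 16 for 1435449_at (0.052 to 0.13) and 4 of 16 for 1456006_at (0.052 to 0.079). Without stressed replicate 2 the last 2 differed by 1.14 (adjusted p = 0.13) and 0.58 (adjusted p = 0.074). Apaf1 1452870_at kept its call in all 16 cases. Without stressed replicate 2 of day 14 only 1 member rose and 1 fell, and without stressed replicate 4 of day 14 there were 8 and 5, while 948 and 4800 of all probe sets passed.

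**Figure D3:**
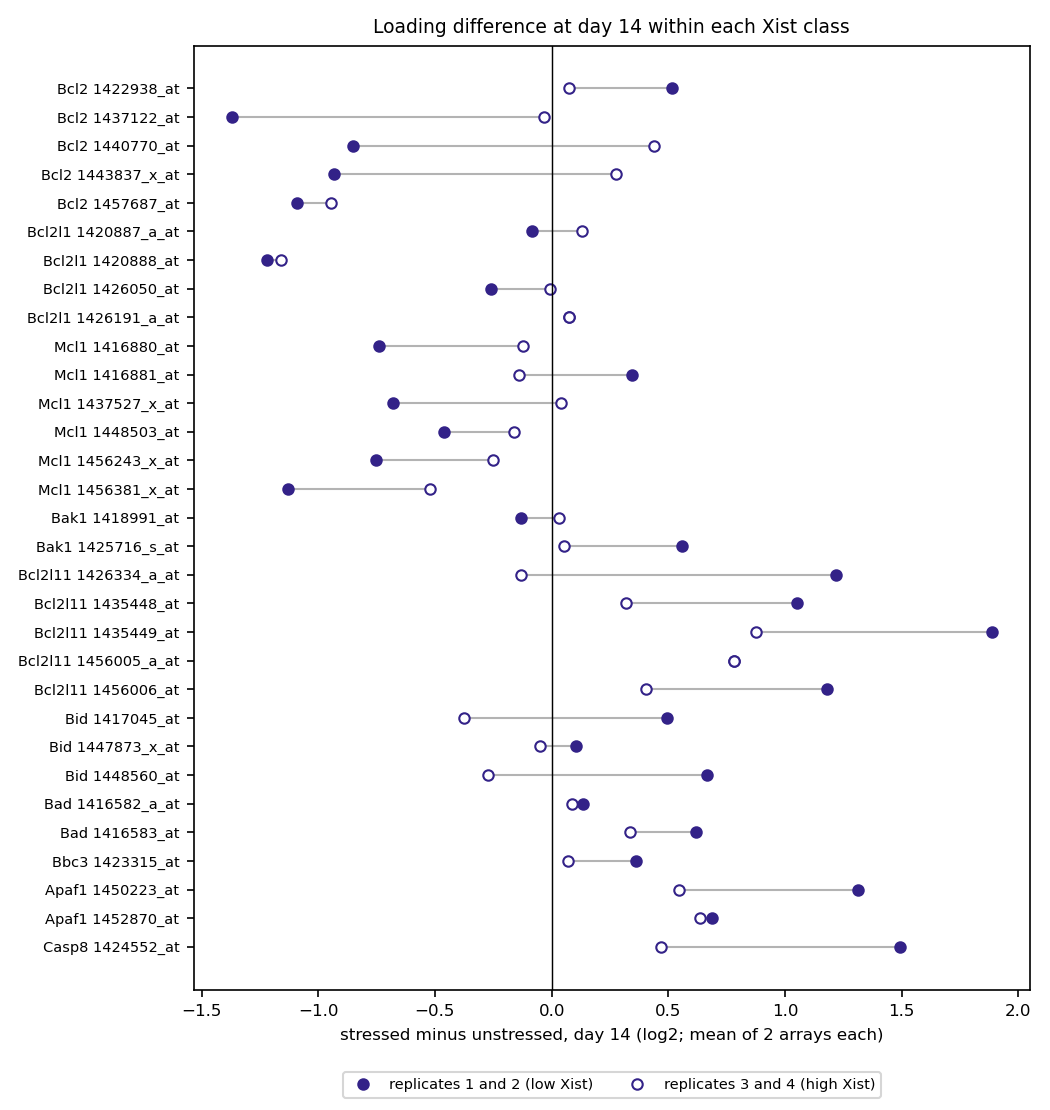
Stressed minus unstressed difference at day 14 (log2, x axis) of each of the 31 member probe sets in replicates 1 and 2 (filled, low Xist) and in replicates 3 and 4 (open, high Xist), each the difference between means of 2 arrays. Bcl2l1 1420888_at (-1.22 and -1.16) and Apaf1 1452870_at (0.69 and 0.63) lay at like values in both classes, whereas Bcl2 1437122_at lay at -1.37 and -0.03.

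Cell type markers moved between the same day 14 groups. Of 10 macrophage and monocyte markers, 9 rose with loading (median 1.47), against 3.83% of all genes with 1 probe set per gene, and their mean per array lay at -2.55 to -1.76 in unstressed and -1.16 to 0.04 in stressed wounds. Neutrophil markers rose in 3 of 5 genes (array means -2.16 to -1.15 and -0.38 to 1.16) and fibroblast markers in 3 of 8 (-1.65 to -0.74 and -0.36 to 0.32). Skeletal muscle markers fell in 6 of 10 genes, adipocyte markers in 5 of 6 and hair follicle markers in 2 of 9, against 4.26% of all genes. Their array means ran from -1.60 to 0.79, from 0.87 to 2.33 and from 1.31 to 1.86 in unstressed wounds, and from -4.11 to -0.42, from -2.44 to 0.43 and from -0.63 to 1.62 in stressed wounds. Of the 8 lymphocyte, 10 keratinocyte and 8 endothelial markers none passed, with medians of 0.13, 0.08 and 0.60. Which defining markers are absent cannot be read from centred values. The part of these cell types in the differences of Bcl2l1, Bcl2, Mcl1, Bcl2l11 and Apaf1 was not tested.

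Whether loading acted otherwise at day 14 than at day 6 was tested as the difference between the loading effects. No member passed in limma, and 3 of 34945 probe sets did (0.00858%), while 6 members and 3506 of all probe sets had an unadjusted p under 0.05. A call at day 14 and none at day 6 does not show that the days differ. For Bcl2l1 1420888_at, with the smallest p among the members, the difference was -1.15 (95% interval -1.62 to -0.68, adjusted p = 0.12). It was -1.15 for Bcl2 1457687_at (adjusted p = 0.26), 1.78 for Bcl2l11 1435449_at (adjusted p = 0.28) and -0.84 for Mcl1 1456381_x_at (adjusted p = 0.34). With the high-Xist arrays left out, 7 member probe sets passed, 3 of Bcl2l11 higher and 4 of Bcl2, Bcl2l1 and Mcl1 lower, while 2749 of all probe sets passed. Without stressed replicate 4 of day 14, Bcl2l1 1420888_at (-1.29, adjusted p = 0.011) and Bcl2 1457687_at (-1.39, adjusted p = 0.021) passed.

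Between day 6 and day 14 in unstressed wounds, 8 of the 14 probe sets of BH3-only and caspase-activating genes fell. Of the 31 member probe sets, 2 rose and 9 fell, 35.5% in all, close to the 40.2% of all probe sets (16.8% higher and 23.4% lower). Of the 9 that fell, 6 belonged to BH3-only genes, 2 to Apaf1 and Casp8 and 1 to Bcl2. In stressed wounds 3 rose and 15 fell, 58.1% in all, against 45.3% of all probe sets (18.7% and 26.6%). Of the 15 that fell, 8 belonged to pro-survival genes, which hold 15 of the 31 member probe sets, 4 to BH3-only genes, 2 to Apaf1 and Casp8 and 1 to Bak1. The loading effect at day 14 and the time effects share the day 14 arrays, so these counts are not independent. The comparison of days also holds the high-Xist arrays at day 14 only.

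Bad 1416583_at had the smallest adjusted p of all members. It read -0.02, 0.01, 0.05 and 0.09 in unstressed replicates 1 to 4 at day 6 and -1.22, -1.33, -1.07 and -1.69 at day 14, and 0.15, 0.34, 0.12 and -0.01 in stressed wounds at day 6 and -0.70, -0.61, -1.22 and -0.88 at day 14. All arrays of day 14 lay below all arrays of day 6. It fell by 1.36 in unstressed (SE 0.15, adjusted p = 1.4e-05) and by 1.0 in stressed wounds (SE 0.15, adjusted p = 0.00013). The second Bad probe set, 1416582_a_at, differed by 0.07 and 0.20, did not pass, and correlated with the first at r = -0.23 over the 16 arrays.

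Bid, the BH3-only protein that Casp8 cleaves, fell in 2 of 3 probe sets in both unstressed and stressed wounds. Probe set 1417045_at read -0.02, 0.42, 0.14 and -0.07 in unstressed wounds at day 6 and -1.41, -1.36, -1.46 and -0.84 at day 14. In stressed wounds it read 0.15, -0.18, 0.30 and 0.24 at day 6 and -0.95, -0.82, -1.67 and -1.38 at day 14. The days did not overlap in either condition, and the falls were -1.38 (SE 0.19, adjusted p = 9.6e-05) and -1.33 (SE 0.19, adjusted p = 0.00012). The 3 Bid probe sets correlated with each other at r = 0.56 to 0.82. Probe set 1447873_x_at fell by 0.53 in unstressed wounds and by 0.35 in stressed ones, the latter with an adjusted p of 0.046 that was lost in 13 of 16 fits without 1 array (0.052 to 0.13). The third, 1448560_at, passed in neither condition, with -0.60 (adjusted p = 0.062) and -0.20 (adjusted p = 0.52, overlapping groups).

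Bbc3 read 0.13, 0.18, 0.56 and 0.21 in unstressed wounds at day 6 and -0.64, -0.97, -0.51 and -0.56 at day 14. In stressed wounds it read 0.23, 0.26, -0.14 and 0.16, and then -0.62, -0.26, -0.75 and -0.18. The days did not overlap, and Bbc3 fell by 0.94 (SE 0.16, adjusted p = 0.00033) and by 0.58 (SE 0.16, adjusted p = 0.0074). Casp8, whose day 14 values are given above, read 0.20, 0.23, -0.32 and 0.09 in unstressed and 0.42, -0.35, 0.63 and 0.49 in stressed wounds at day 6. It fell by 1.51 in unstressed wounds (SE 0.29, adjusted p = 0.0009). In stressed wounds it fell by 0.78 (SE 0.29, adjusted p = 0.038), with -0.25 to the low-Xist and -1.30 to the high-Xist arrays, and that call was lost without stressed replicates 1, 3 or 4 of day 6 or 3 or 4 of day 14, each in turn (adjusted p = 0.084 to 0.12). It was also lost with the Xist class as a block (-0.51, adjusted p = 0.17), with only the low-Xist arrays of day 14 (adjusted p = 0.43) and with only the 8 arrays compared (adjusted p = 0.072). Apaf1 1452870_at fell by 0.63 in unstressed (SE 0.12, adjusted p = 0.00099) and by 0.39 in stressed wounds (adjusted p = 0.017), the latter lost without stressed replicate 3 of day 6 (adjusted p = 0.051) or of day 14 (adjusted p = 0.054), with the Xist class as a block (-0.31, adjusted p = 0.069) and with only the low-Xist arrays of day 14 (-0.29, adjusted p = 0.11). Its other probe set rose by 0.80 in stressed wounds (adjusted p = 0.027), with 1.25 to the low-Xist and 0.35 to the high-Xist arrays. That rise was lost without stressed replicates 2 (0.60, adjusted p = 0.087) or 3 (adjusted p = 0.052) of day 6 or 1 (adjusted p = 0.089) or 2 (adjusted p = 0.082) of day 14.

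Bcl2l11 fell in unstressed wounds in 2 of 5 probe sets, 1435449_at (-1.31, SE 0.38, adjusted p = 0.012) and 1435448_at (-0.76, SE 0.20, adjusted p = 0.0071). In stressed wounds 0 of 5 passed with all arrays as deposited, and the differences ran from -0.06 to 0.48. With only the low-Xist arrays of day 14, 1426334_a_at (0.68, adjusted p = 0.011), 1435449_at (1.12, adjusted p = 0.029) and 1456006_at (0.77, adjusted p = 0.003) rose in limma. Their differences to the high-Xist arrays were -0.36, -0.17 and -0.07. Probe set 1456006_at also passed with array weights (0.43, adjusted p = 0.035) and with the Xist class as a block (0.58, adjusted p = 0.019). At day 6, 1435449_at read -0.34, 0.15, 0.66 and 0.55 in unstressed and 0.30, -1.15, -0.11 and 0.37 in stressed wounds, with stressed replicate 2 the lowest array of that day. In order of group means, it ran from unstressed day 14 (-1.05 ± 0.32) to stressed day 6 (-0.15 ± 0.70), unstressed day 6 (0.25 ± 0.45) and stressed day 14 (0.33 ± 0.77; SD, n = 4), and each neighbouring pair in that order overlapped in its arrays. Whether the time effect differs between unstressed and stressed wounds is the same test as that of the loading effects above. Bcl2l11 did not pass it with all arrays and values as deposited.

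Among pro-survival genes, Bcl2 probe sets moved in opposite directions with time. Probe set 1440770_at read 0.06, -0.23, 0.52 and -0.01 in unstressed wounds at day 6 and -0.58, -0.92, -1.49 and -1.38 at day 14. In stressed wounds it read 0.01, 0.03, 0.02 and -0.34, and then -1.58, -1.62, -0.94 and -1.05. It fell by 1.18 (SE 0.22, adjusted p = 0.00079) and by 1.23 (SE 0.22, adjusted p = 0.00052). In contrast, 1422938_at read -0.08, -0.28, -0.24 and -0.23 in unstressed wounds at day 6 and 0.45, 0.42, 0.18 and 0.82 at day 14, and -0.08, -0.19, -0.12 and 0.14 and then 0.67, 1.23, 0.69 and 0.45 in stressed wounds. All arrays of day 14 lay above all arrays of day 6. It rose by 0.67 (SE 0.16, adjusted p = 0.0042) and by 0.82 (SE 0.16, adjusted p = 0.00098). The 10 pairs of Bcl2 probe sets correlated at r = -0.86 to 0.85, so no direction can be given for Bcl2 as a gene.

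In stressed wounds, Bcl2 1457687_at read 0.19, 0.18, 0.42 and 0.49 at day 6 and fell by 1.63 to day 14 (SE 0.22, adjusted p = 8.1e-05). The difference in unstressed wounds, from 0.22, 0.56, -0.10 and 0.08 at day 6, was -0.47 (adjusted p = 0.1), and passed with array weights (-0.55, adjusted p = 0.016) and without stressed replicate 4 of day 14 (adjusted p = 0.038). Bcl2 1437122_at, at 0.30, 0.53, 0.25 and 0.09 in stressed wounds at day 6, fell by 1.29 in stressed wounds (adjusted p = 0.00032) and differed by -0.41 in unstressed ones (adjusted p = 0.14), where it had read 0.01, 0.35, -0.03 and 0.13 at day 6. Mcl1 1456381_x_at, at 0.19, 0.07, 0.18 and -0.13 in unstressed and -0.10, 0.56, 0.01 and -0.10 in stressed wounds at day 6, fell by 1.20 in stressed wounds (adjusted p = 0.00027) and differed by -0.36 in unstressed ones (adjusted p = 0.16). Of 6 Mcl1 probe sets, 4 fell in stressed wounds. None passed in unstressed ones as deposited, but 1437527_x_at and 1456381_x_at did with only the high-Xist arrays of day 14 (adjusted p = 0.031 and 0.032) and without unstressed replicate 1 of day 14 (0.027 and 0.018), as did Bcl2 1437122_at (0.0015 and 0.029). Mcl1 1448503_at differed the other way in unstressed wounds, by 0.45 as deposited (adjusted p = 0.11), and passed as a rise with array weights (0.59, adjusted p = 0.017). The test of the difference between conditions was not passed, with all arrays and values as deposited, by any of these Bcl2 and Mcl1 probe sets (adjusted p = 0.26 for Bcl2 1457687_at, 0.35 for Bcl2 1437122_at and 0.34 for Mcl1 1456381_x_at), so the fall is not shown to differ between stressed and unstressed wounds. Bcl2l1 1420888_at, which read -0.06, -0.25, 0.10 and -0.09 in unstressed and -0.18, 0.01, -0.01 and -0.29 in stressed wounds at day 6, rose by 0.45 to day 14 in unstressed (SE 0.16, adjusted p = 0.031) and fell by 0.70 in stressed wounds (SE 0.16, adjusted p = 0.0024). The rise was lost in 5 of 16 fits without 1 array (adjusted p = 0.054 to 0.087), with the Xist class as a block (0.061) and with only the high-Xist arrays of day 14 (0.11), and the fall with quantile normalization (-0.31, adjusted p = 0.12). Bcl2l1 1420887_a_at rose by 0.70 in stressed wounds (adjusted p = 0.016). Bak1 1418991_at, an effector that opens the mitochondrial membrane, fell by 1.02 in stressed wounds (SE 0.28, adjusted p = 0.0091), with overlapping groups. The other Bak1 probe set, 1425716_s_at, differed the other way in stressed wounds, by 0.10 (SE 0.17, adjusted p = 0.65 in limma), and did not pass. Both Bak1 probe sets correlated at r = 0.27 over the 16 arrays, so the fall cannot be given for Bak1 as a gene.

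Of the 11 calls in unstressed wounds 8 held under all alternatives, and of the 18 in stressed wounds 8 did. No call changed sign. Bcl2l11 lost its calls in unstressed wounds with only the high-Xist arrays of day 14 (1435448_at, -0.47, adjusted p = 0.11) or with the Xist class as a block (1435449_at, adjusted p = 0.061). In stressed wounds, Mcl1 1416880_at, 1437527_x_at and 1456243_x_at lost theirs with quantile normalization (adjusted p = 0.08, 0.094 and 0.18), and Bak1 1418991_at (-0.98, adjusted p = 0.065) and Bcl2l1 1420887_a_at (0.61, adjusted p = 0.11) with only the high-Xist arrays. Bad 1416583_at, Bid 1417045_at and Bbc3 kept their calls in both conditions.

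**Figure D4:**
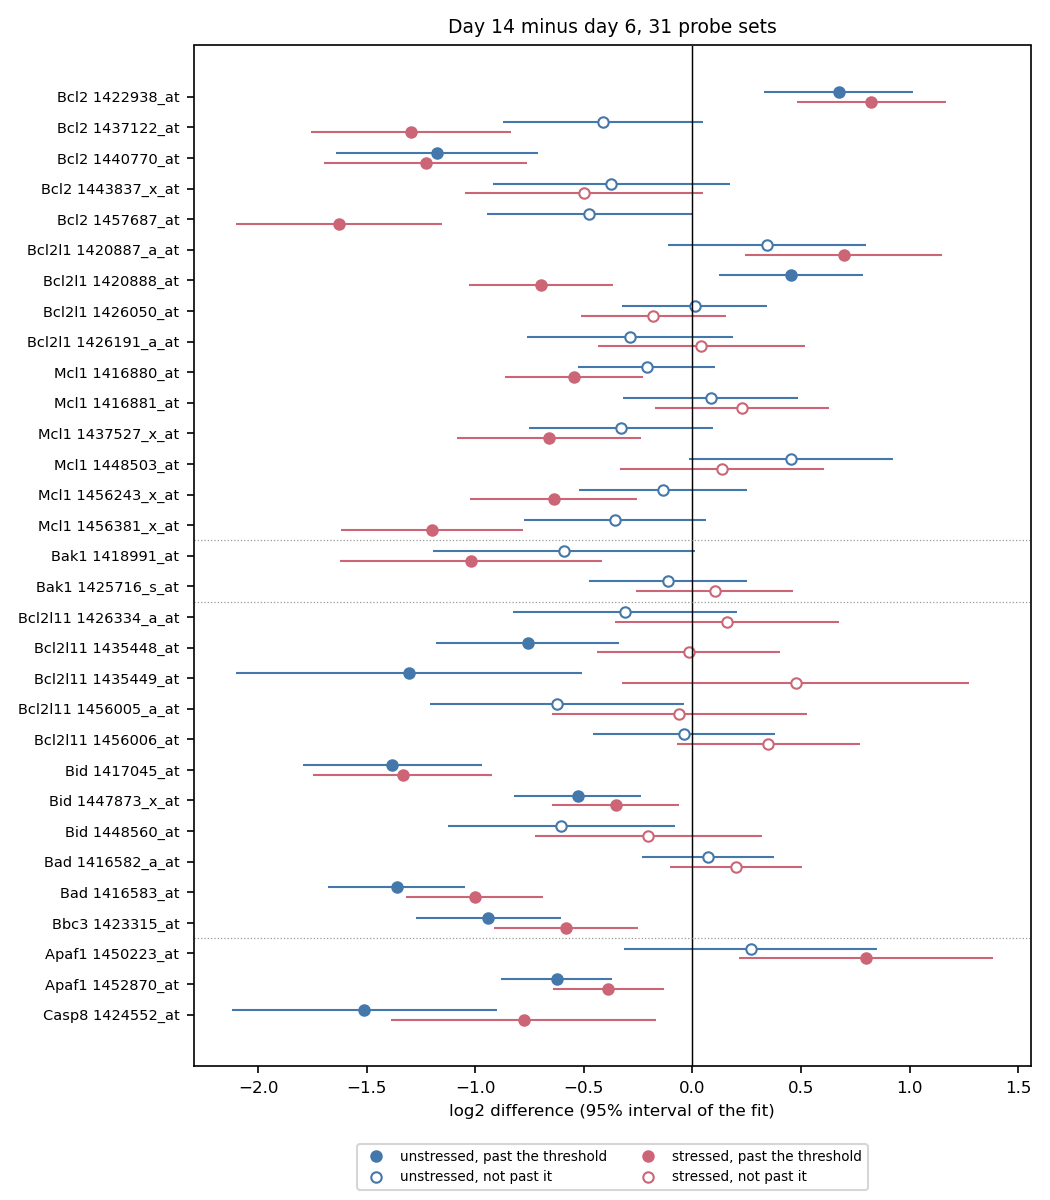
Day 14 minus day 6 difference (log2, x axis) of each of the 31 member probe sets in unstressed and stressed wounds, with the 95% interval of the limma fit (n = 4 arrays per group) and dotted lines between pro-survival, effector, BH3-only and caspase-activating genes. Filled points passed an adjusted p of 0.05, 11 in unstressed and 18 in stressed wounds; Bcl2 1422938_at lay to the right of 0 in both conditions and 1440770_at to the left.

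Macrophage and monocyte markers also fell from day 6 to day 14, in 10 of 10 genes in unstressed wounds (median -2.13) and in 8 of 10 in stressed wounds (median -0.95), against 30.5% and 33.3% of all genes. Their array means at day 6 lay at -0.30 to 0.65 in unstressed and 0.24 to 0.75 in stressed wounds. Of all genes, 21.9% rose in unstressed and 23.3% in stressed wounds. Muscle markers fell in 9 of 10 genes in stressed wounds and rose in 1 of 10 in unstressed ones. Hair follicle markers rose in 6 of 9 in unstressed wounds, with 4 higher and 2 lower in stressed ones. Neutrophil markers fell in 3 of 5 genes in unstressed wounds and had 1 higher and 1 lower in stressed ones. Keratinocyte markers fell in 5 of 10 and 2 of 10, and endothelial markers in 2 of 8 and 4 of 8. Fibroblast markers had 1 higher and 3 lower of 8 in each condition, adipocyte markers 3 of 6 higher in unstressed and 2 of 6 lower in stressed wounds, and lymphocyte markers 2 higher and 3 lower, and 1 higher and 2 lower, of 8. The counts of lymphocyte and fibroblast markers, of endothelial markers in unstressed and of keratinocyte markers in stressed wounds were near or below the shares of all genes. The part of these cell types in the time effects of Bad, Bid, Bbc3 and Casp8 was not tested.

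Other genes of the apoptotic pathway were read with 1 probe set per gene. Of 36 such genes in 7 lists, 2 passed for loading at day 14, both p53 targets that fell, a share near the 8.09% of all genes. They were the nuclease gene Aen (-0.84, SE 0.18, adjusted p = 0.013), with 4 of 4 probe sets below 0, and the cyclin G1 gene Ccng1 (-0.79, SE 0.18, adjusted p = 0.016), with 3 of 3. None passed at day 6. The executioner Casp6 differed by 0.63 at day 14 (adjusted p = 0.084), the death ligand Tnfsf10 (TRAIL) by 0.46 (adjusted p = 0.11), the pro-survival Bcl2l10 by -0.51 (adjusted p = 0.14), the BH3-only gene Pmaip1 (Noxa) by 0.60 (adjusted p = 0.22), and the caspase inhibitors Xiap and Birc3 by 0.62 (adjusted p = 0.2) and 0.55 (adjusted p = 0.23). The median difference at day 14 was -0.24 for 2 pro-survival genes, -0.33 for the single effector gene, 0.20 for 5 BH3-only genes, -0.22 for 6 apoptosome and caspase genes, 0.32 for 4 inhibitors of apoptosis, 0.09 for 9 death receptor genes and -0.19 for 9 p53 targets, against 0.01 for all genes. Of 7 cell cycle genes, none passed in any of the 5 comparisons (median 0.20 at day 14).

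With time, Pmaip1 fell by 1.93 in unstressed (SE 0.28, adjusted p = 0.00013) and by 1.48 in stressed wounds (adjusted p = 0.00082), while the BH3-only gene Bmf rose by 1.10 (adjusted p = 0.00081) and 1.15 (adjusted p = 0.00052). Of 5 such genes, 1 rose and 2 fell in unstressed and 2 rose and 2 fell in stressed wounds, where 52.4% and 56.6% of all genes passed (21.9% and 23.3% higher). Of 2 other pro-survival genes 2 rose in unstressed (median 0.93) and 1 in stressed wounds (median 0.49), the single effector gene fell in stressed wounds, and of 6 apoptosome and caspase genes 1 rose and 2 fell in each condition. The inhibitors of apoptosis Birc2 and Birc3 fell in both, by 0.61 and 1.28 in unstressed and by 0.92 and 0.83 in stressed wounds, 2 of the 4 genes on that list. Of 9 death receptor genes, 3 fell in unstressed wounds, and in stressed wounds 5 fell and 1 rose, Tnfsf10 (0.48, adjusted p = 0.032). Of 9 p53 targets, 3 rose and 4 fell in unstressed and 1 rose and 4 fell in stressed wounds. The cell cycle inhibitor Cdkn1a had the widest fall of that list, -3.10 in unstressed (SE 0.30, adjusted p = 6.1e-06) and -3.28 in stressed wounds (SE 0.30, adjusted p = 5.3e-06).

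Pairs of probe sets of 1 gene had median correlations over the 16 arrays of 0.65 for Bcl2l11 (0.42 to 0.79), 0.62 for Bid (0.56 to 0.82), 0.61 for Bcl2 (-0.86 to 0.85), 0.12 for Mcl1 (-0.27 to 0.95) and 0.00 for Bcl2l1. The member probe sets with the widest range of group means were Casp8 1424552_at (1.76) and Bcl2 1457687_at (1.63). Over the 16 arrays, the genes whose signal was most like Casp8 were Evi2a (r = 0.97), Ufsp2 (r = 0.97) and Tram1 (r = 0.96), and those most like this Bcl2 probe set were Mccc2 (r = 0.97), Hivep1 (r = 0.97) and Idh3b (r = 0.96). These correlations rest on 4 groups that differ in time, loading and Xist class and describe the pattern only.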

How the data were processed

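RNA of 16 wounds (4 groups of 4) was hybridised to Affymetrix GeneChip arrays, and the authors processed the scans in GeneSpring GX 11.0, per the design text. That text gives 20 oligonucleotide pairs for a gene, a general description that was not checked against this array. The deposited values are log signals centred per probe set, read here as log2: replicates differed with an SD of at least 0.238 and a probe set spanned up to 10.08, where log10 of a 16-bit scan ends at 4.82. A natural log remains possible and would scale every difference alike. The background correction, normalization, centring reference and probe filters are not stated. Array medians lay at -0.0094 to 0.0519. Arrays carry no read depth, and detection cannot be judged.

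Probe sets were named through the platform annotation: of 45101, 34945 had 1 gene symbol and were tested, 932 had several, 9211 had none and 64 were Affymetrix controls (13 of them with 1 symbol). Group means of all 16 arrays were fitted in limma 3.58.1 (R 4.3.3; lmFit and eBayes), with 5 comparisons and Benjamini-Hochberg adjustment at 0.05 over all 34945. The fit was tested on simulated data. Tables and drawings used Python 3.11.15 with pandas 2.3.3, numpy 2.4.6 and matplotlib 3.10.9. Cell type and pathway lists used the probe set of largest interquartile range per gene. The members and lists were chosen with earlier results of these data known. Array values are given for the called probe sets with the smallest adjusted p (up to 10), other lists by up to 4 genes with the smallest p at day 14, and the 2 members of widest range with their 3 most correlated genes. Values by array of the Bcl2l11 and Apaf1 probe sets, and Birc2, Cdkn1a, Tnfsf10 and Bmf with time, were chosen after their values were seen.

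At day 14, deviations of same-numbered arrays from their group means correlated at 0.25, 0.17, 0.26 and 0.14 over probe sets. Each such pair also shares its Xist class, so these values do not show that replicate numbers pair arrays within a class. At day 6 the correlations were -0.42 to 0.00, and across days -0.16 to 0.09. Nothing beyond the stated 4 mice per group says that arrays came from separate animals, and p-values measure the spread between arrays. Alternatives were quantile normalization, array weights, 1 probe set per gene, every probe set, the more variable probe sets (by interquartile range), a replicate block, the Xist class as a block, each Xist class alone, only the groups compared and each array left out.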

Additional observations from a re-analysis of the deposited data

Results flagged for a closer look

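Of 124 groups of 4 arrays (31 member probe sets in 4 groups), 10 held 1 array far from the other 3, by the gap to the nearest array over the whole range. Chance alone gives about 1 in 20 groups.

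Bcl2l1 1420887_a_at held 2 of them, stressed replicate 2 of day 6 at -1.35 (the other 3 at -0.48 to -0.40) and unstressed replicate 4 of day 14 at -0.55 (others at 0.17 to 0.22). Bcl2l1 1426050_at had unstressed replicate 3 of day 6 at 0.45, against 0.01 and below in the others. Bcl2 1440770_at had stressed replicate 4 of day 6 at -0.34, against 0.01 to 0.03.

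Mcl1 held 3: in 1416881_at unstressed replicate 2 of day 6 lay at 0.30, against -0.27 to -0.24, in 1456243_x_at stressed replicate 4 of day 14 at -0.38, against -0.72 to -0.68, and in 1456381_x_at stressed replicate 2 of day 6 at 0.56, against -0.10 to 0.01. Bid 1417045_at had unstressed replicate 4 of day 14 at -0.84, against -1.46 to -1.36.

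Bak1 1418991_at had unstressed replicate 3 of day 6 at 0.83, against -0.05 to -0.01, and Bak1 1425716_s_at had stressed replicate 2 of day 14 at 0.71, against -0.01 to 0.01. Of the 7 probe sets that passed for loading at day 14, none had such an array in a day 14 group, and Mcl1 1456381_x_at had one at day 6.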

How the results depend on the processing

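Of 36 calls of member probe sets over the 5 comparisons, 17 held under all alternatives, 19 were lost under at least 1 and 0 changed sign, and 29 of 119 results without a call passed under at least 1. As deposited, loading moved 9 probe sets at day 6 and 2567 at day 14 (members 4 higher and 3 lower), and 3 differed between the days. Quantile normalization gave 433 at day 6 (1 member higher) and 362 at day 14 (0 members higher, 1 lower). Array weights gave 591 (1 member higher), 5149 (8 and 6) and, between the days, 865 (3 members lower), with 4 members higher with time in unstressed wounds. With 1 probe set per gene there were 1483 at day 14 (1 member lower) and 7 between the days, and with time 0 members higher in unstressed wounds, and 1 higher and 8 lower in stressed ones, since fewer member probe sets were tested. Between the days, every probe set except controls gave 1 and the more variable probe sets 13. The replicate block gave 1 at day 6 and 16 between the days, and 1 member higher with time in unstressed wounds. Same-numbered arrays were most alike at day 14, where the block ended the call of Bcl2l11 1435448_at, and the block changed no other member call for loading. Across days, where same-numbered arrays were not alike, the block ended the call of Bcl2l1 1420888_at with time in unstressed wounds (adjusted p = 0.053). Unstressed replicate 2 of day 14 correlated best with stressed replicate 1. Only the 8 arrays compared gave 16 at day 6 and 122 at day 14 (0 members higher, 1 lower). The Xist class as a block gave 15, 4085 (8 members higher) and 76, and 1 member higher with time in unstressed wounds. Low-Xist arrays alone gave 6548 at day 14 (8 and 7) and 2749 between the days (3 and 4), with 6 members higher with time in stressed wounds. High-Xist arrays alone gave 800 (0 and 1) and 83, and 1 member higher with time in each condition. Chosen after seeing the data, the 8 day 14 arrays with the Xist class as a block gave 1153 (1 member lower). The cause of these shifts was not tested.

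Leaving out each array in turn gave 0 to 11 probe sets at day 6, 948 to 4800 at day 14 (members 1 to 8 higher, 1 to 6 lower) and 1 to 333 between the days (members 0 to 2 lower). At day 14 the count was 1649 without unstressed replicate 1, 1278 without stressed replicate 1, 948 without stressed replicate 2 and 4800 without stressed replicate 4, which also gave the 333. With time, 11432 to 14551 passed in unstressed wounds (members 1 to 2 higher, 9 to 13 lower) and 13175 to 16295 in stressed ones (2 to 3 and 12 to 15). Centred values give no signal over background, so weakly detected probe sets could not be set apart.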
